A study of Rattus norvegicus with 6 samples.

Results

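The genes described here are Tbr1 and 8 other transcription factors of pallial neurons, Eomes, Neurod1, Neurod2, Neurod6, Fezf2, Bcl11b, Sox5 and Satb1. They were taken as the rows of the count files whose NCBI gene identifier carries one of these rat symbols, which gave 9 of the 38445 genes, and all 9 passed the filter on low counts. Tbr1 was chosen by its measured difference between the ethanol and control libraries, which was already known, so its levels and its difference are given as a description without a test. The other 8 were added as transcription factors of the same class of neurons, with earlier results of these data in view. The RNA was extracted from the amygdala (central, medial and basolateral nuclei together) of adult male Sprague Dawley rats of wild-type genotype. The 3 control libraries came from rats injected with saline and the 3 ethanol libraries from rats injected intraperitoneally with ethanol at 1 g/kg, and all were killed 1 h after the injection. Each library pooled the RNA of 2 rats, so that a library stands for a pair of animals and the spread within a pair is not seen.

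The pallium is the dorsal part of the embryonic telencephalon, and its glutamatergic neurons form the cortex, the hippocampus and the basolateral part of the amygdala, while the GABA neurons of the striatum and of the central amygdala come from the subpallium. Postmitotic pallial neurons switch on bHLH factors of the NeuroD family and then subtype factors: TBR1 specifies early-born and deep-layer neurons and the projections of the basolateral amygdala, and FEZF2 and BCL11B (also called CTIP2) specify neurons that project below the cortex. SOX5 sets the timing of deep-layer fates, SATB1 organizes chromatin in both pallial neurons and cortical interneurons, and EOMES (also called TBR2) marks the intermediate progenitors that precede TBR1. Most of these genes stay on in adult neurons.

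Tbr1 was the member chosen by its difference between the groups. Neurod2 and Neurod6 were among the 3 NeuroD members whose libraries stood in the order of Slc17a7, a marker of pallial neurons, in both groups. The promoters of Tbr1, Neurod2 and Neurod6 are shown. Each is the stretch of 250 bases before the RefSeq start site in the GRCr8 build, read along the strand of the gene, with the letters CAGATG (an E-box bound by NeuroD factors) and TAATTA (a core bound by homeodomain factors) in capitals on either strand. They lie at chr3:66759553-66759802 on the plus strand, at chr10:83824278-83824527 on the minus strand and at chr4:86180156-86180405 on the minus strand.
Tbr1: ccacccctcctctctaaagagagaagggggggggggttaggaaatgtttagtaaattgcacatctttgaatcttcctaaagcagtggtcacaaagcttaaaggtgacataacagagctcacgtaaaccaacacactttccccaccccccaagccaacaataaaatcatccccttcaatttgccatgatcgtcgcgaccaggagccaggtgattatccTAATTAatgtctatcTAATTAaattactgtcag
Neurod2: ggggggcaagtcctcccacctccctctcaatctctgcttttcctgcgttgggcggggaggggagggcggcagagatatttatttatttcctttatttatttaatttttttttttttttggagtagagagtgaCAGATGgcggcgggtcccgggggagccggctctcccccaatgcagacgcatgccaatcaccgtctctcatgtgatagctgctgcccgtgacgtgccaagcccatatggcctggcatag
Neurod6: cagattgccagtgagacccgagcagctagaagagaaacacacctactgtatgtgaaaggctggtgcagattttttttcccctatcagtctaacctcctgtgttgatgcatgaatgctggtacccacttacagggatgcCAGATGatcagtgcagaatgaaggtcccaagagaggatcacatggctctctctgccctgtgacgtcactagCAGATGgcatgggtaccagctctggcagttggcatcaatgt
Sequences were found for 7 of the 9 genes, the exceptions being Bcl11b and Sox5. The E-box CAGATG occurred in the Neurod2 window 118 bases before the start. It occurred at 2 places in the Neurod6 window, 112 and 41 bases before the start. None of the other 5 windows held it, among them that of Neurod1, which also followed the order of Slc17a7 but is not printed. Of the 33469 promoter windows of the same length in the table, 14% held it. The core TAATTA occurred at 2 places in the Tbr1 window, 33 and 18 bases before the start, and in none of the other 6, against 4.86% of all windows. The T-box element AGGTGTGA, which TBR1 and EOMES can bind, was in none of the 7 windows (0.959% of all windows), nor were the TATA box letters TATAAA (12.9%). No motif overlapped another in these windows. A match is a run of letters and no match says only that these letters are absent from the window.

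The counts of a library summed to 62576504 to 70755739, and levels are given as CPM, the count of a gene scaled to the total of its library after TMM scaling between libraries (factors from 0.976 to 1.01). At this depth 3 counts stand for at most 0.0479 CPM. The dissected tissue held markers of pallial and of subpallial neurons in every library. Slc17a7, the vesicular glutamate transporter of pallial neurons, was at 413, 770 and 554 CPM in control libraries 1, 2 and 3 and at 668, 879 and 425 CPM in ethanol libraries 1, 2 and 3. Thus control 1 and ethanol 3 held the least Slc17a7 and control 2 and ethanol 2 the most, and the groups overlapped. In bulk tissue, fewer cells of a type and less RNA per cell cannot be told apart. Ethanol 3 stood apart by Pmch, which encodes melanin-concentrating hormone of the lateral hypothalamus, with 206 CPM against 2.12 to 14.5 CPM in the other 5 libraries, and the difference of each member is also given without it. Summed over 8 thalamic and hypothalamic markers, Pmch among them, ethanol 3 reached 387 CPM against 97.3 to 141 CPM elsewhere. Tcf7l2 and Pomc of this list were at 14.6 and 2.10 CPM in ethanol 3. Tcf7l2 was higher in control 1 (18.5 CPM) and Pomc in control 3 (2.32 CPM), while the other genes of the list were highest in ethanol 3. Markers of choroid plexus and ependyma (9 genes) summed to 518 to 1108 CPM in the controls, to 22.1 and 24.5 CPM in ethanol 1 and 2 and to 481 CPM in ethanol 3, so that for this list the groups did not overlap (exact permutation of the labels, 2-sided, with p = 0.1 as the lowest value possible with 3 libraries a group, and 0.963 after Benjamini-Hochberg adjustment over 11 marker lists). Most of this sum in the controls and ethanol 3 was Ttr. It was at 461 to 995 CPM in controls and at 5.42, 4.34 and 425 CPM in ethanol 1, 2 and 3. Without Ttr the log2 difference of the sum was -1.55 in place of -3.65. Of the 8 genes of the list that were tested, 4 had all ethanol libraries below all controls, beside 5.19% of all genes. Otx2, a choroid plexus transcription factor on the list, had 1 count in all. Oligodendrocyte markers summed to 3548 to 8377 CPM in controls and to 4354, 6020 and 9725 CPM in ethanol 1, 2 and 3. For the other 10 lists the groups overlapped and the exact p lay between 0.3 and 1.0. The plot of summed marker levels shows both departures.

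**Figure D1:**
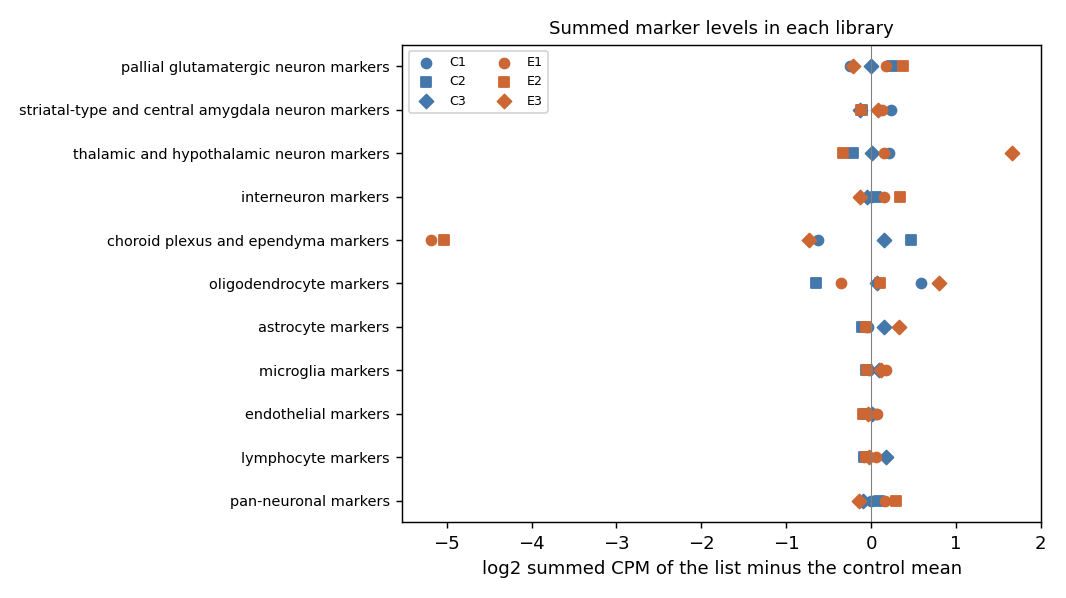
Summed TMM CPM of each marker list in each library, on the log2 scale and relative to the control mean (C1 to C3, control libraries in blue; E1 to E3, ethanol libraries in orange). Ethanol 1 and 2 held 22.1 and 24.5 CPM of choroid plexus and ependyma markers against 518 to 1108 CPM in controls, and ethanol 3 held 387 CPM of thalamic and hypothalamic markers against 97.3 to 141 CPM in the others.

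Levels of different genes were compared per kilobase of exonic length (CPM per kb). In controls Neurod2 was the most abundant of the 9, at 18.2 ± 5.82 CPM per kb (SD, n = 3 libraries), followed by Neurod6 at 17.7 ± 6.05 and Bcl11b at 12.6 ± 0.704 CPM per kb (SD, n = 3 each). Neurod1 stood at 10.8 ± 2.51, Tbr1 at 7.11 ± 0.371 and Fezf2 at 6.33 ± 0.923 CPM per kb (SD, n = 3 each). Sox5 and Satb1 were lower, at 3.39 ± 0.226 and 2.96 ± 0.129 CPM per kb (SD, n = 3 each). Eomes was far below the rest, at 0.131 ± 0.0398 CPM per kb (SD, n = 3). Among neighbours in this order, the control libraries of Neurod1 did not overlap those of Tbr1, nor those of Fezf2 with Sox5, Sox5 with Satb1 or Satb1 with Eomes. The first 4 genes overlapped with their neighbours, as did Tbr1 with Fezf2. Over all 6 libraries only Eomes was separate from its neighbour Satb1. The exonic lengths run from 1.811 kb for Neurod2 to 18.071 kb for Satb1, and without division by length Bcl11b led at 123 CPM and Tbr1 stood at place 8.

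**Figure D2:**
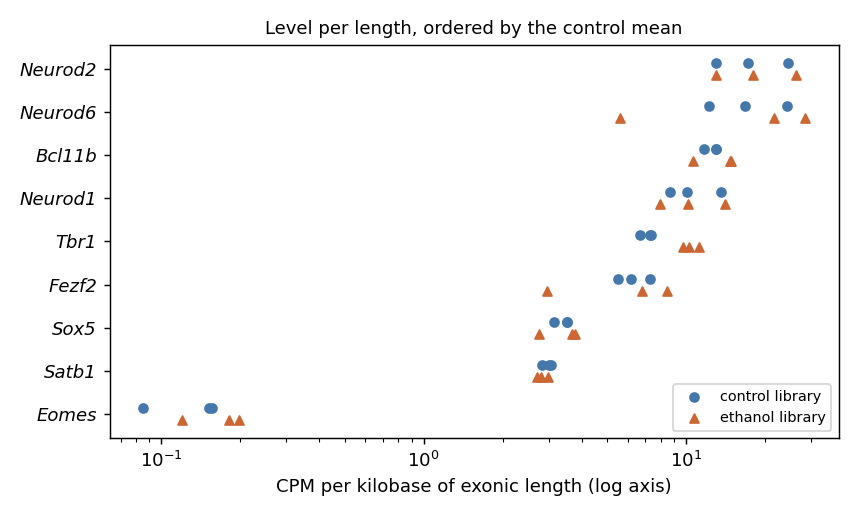
CPM per kilobase of exonic length (log axis) of the 9 genes, ordered by the control mean, with 1 point for each control library (circles) and each ethanol library (triangles). Neurod2 and Neurod6 lead at 18.2 and 17.7 CPM per kb in controls and Eomes is lowest at 0.131 CPM per kb.

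Tbr1 (NCBI gene 680427) lies at chr3:47677720-47685902 of the Rnor_6.0 build on the plus strand, in 11 exonic blocks. Its counts were 985, 972 and 946 in controls 1, 2 and 3 and 1466, 1351 and 1393 in ethanol 1, 2 and 3. Scaled, the controls were at 15.1, 13.7 and 14.9 CPM and the ethanol libraries at 22.8, 21.0 and 20.004 CPM. All 3 ethanol libraries were above all 3 controls, with little spread inside either group: the highest control was 1.10 times the lowest, and the highest ethanol library 1.14 times the lowest. The fitted log2 difference was 0.55 (standard error 0.08), a level 1.46 times that of controls. Tbr1 was the 1 member of 9 whose groups did not overlap. Of the 18141 genes tested, 8.85% had groups that did not overlap, 3.66% with ethanol higher and 5.19% with ethanol lower, and since Tbr1 was chosen for this difference nothing is read from it. The quasi-likelihood test of edgeR, adjusted by Benjamini-Hochberg over all genes, called 0 genes at an adjusted p below 0.2 (0%), where DESeq2 called 75 (0.413%) and the likelihood ratio test of edgeR 77 (0.424%). Without adjustment, 752 genes had a p below 0.05 (4.15%), 1.57% with ethanol higher and 2.57% with ethanol lower, and of the 8 members other than Tbr1 there were 0 among them. Without ethanol 3, the library with the most Pmch, the log2 difference of Tbr1 was 0.59. Over the 6 fits that each left out a library it ran from 0.49 to 0.59. Choroid plexus and ependyma markers also differed between the groups, and in ethanol 3, where they reached 481 CPM, close to the 518 CPM of control 1, Tbr1 was at 20.004 CPM against 15.1 CPM in control 1. The part of choroid plexus tissue in the difference was not tested.

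**Figure D3:**
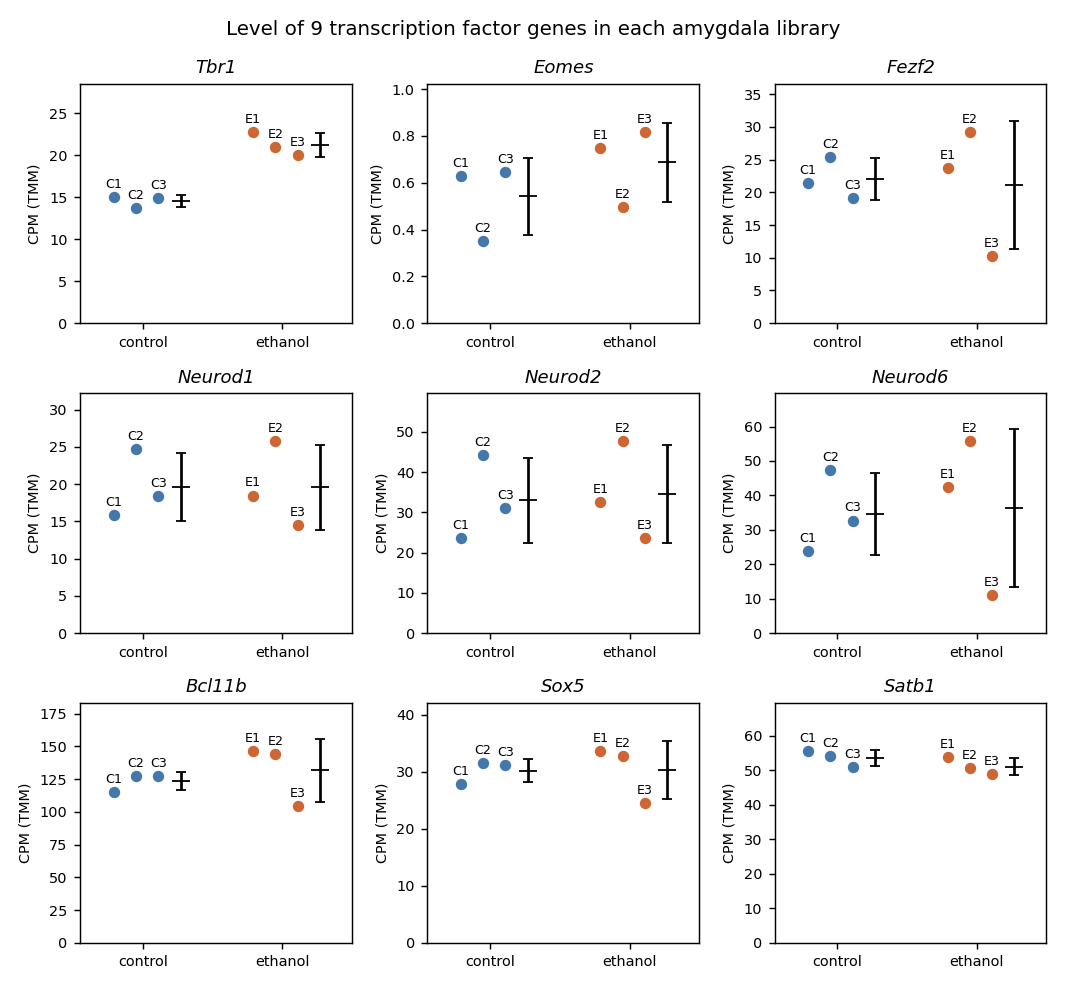
TMM CPM of each of the 9 genes in each library (C1 to C3, control; E1 to E3, ethanol), with the mean and SD of each group as a black bar beside the points. Tbr1 is the only panel in which the groups do not overlap, with controls at 13.7 to 15.1 CPM and ethanol libraries at 20.004 to 22.8 CPM.

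Eomes, the T-box paralog of Tbr1 (NCBI gene 316052, chr8:127144367-127152618, plus strand), was barely expressed. It had 41, 25 and 41 counts in controls 1, 2 and 3 and 48, 32 and 57 counts in ethanol 1, 2 and 3. The controls were at 0.627, 0.352 and 0.647 CPM and the ethanol libraries at 0.748, 0.497 and 0.819 CPM, and the groups overlapped. Its log2 difference was 0.35 with a standard error of 0.30 (edgeR's adjusted p = 1.0). It was 0.21 without ethanol 3 and ran from 0.11 without control 2 to 0.54 without ethanol 2. Eomes was lowest in number 2 of both groups, the libraries with the most Slc17a7. The gene is also known from cytotoxic lymphocytes. Cd8a had 4 to 13 counts per library and Cd3e 1 to 23. Of 7 lymphocyte genes only Cd3e and Ptprc, which microglia also express, passed the filter, and Ptprc was at 5.49 to 6.45 CPM. The part of lymphocytes in the Eomes counts was not tested.

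The 3 NeuroD genes had nearly equal group means and varied strongly between libraries. Neurod1, Neurod2 and Neurod6 lie at chr3:66414314-66417617, chr10:86280865-86282681 and chr4:85911861-85915107 of Rnor_6.0, all on the minus strand. Neurod2, a factor of maturing and adult glutamatergic neurons, was at 23.5, 44.3 and 31.1 CPM in controls 1, 2 and 3 and at 32.6, 47.7 and 23.5 CPM in ethanol 1, 2 and 3. Neurod6, a marker of pyramidal neurons, was at 23.9, 47.2 and 32.7 CPM in the controls and at 42.4, 55.7 and 10.96 CPM in the ethanol libraries. Neurod1, which drives neuronal differentiation, was at 15.9, 24.7 and 18.4 CPM in the controls and at 18.5, 25.7 and 14.5 CPM in the ethanol libraries. For each of the 3 genes, number 2 was the highest library of both groups, and control 1 and ethanol 3 were the lowest. This is the order of Slc17a7 in both groups, which 1505 of the 18141 genes tested (8.3%) also followed. It was followed by 3 of the 9 members, namely these. The log2 differences were -0.01 for Neurod1, 0.07 for Neurod2 and 0.07 for Neurod6, with standard errors of 0.23, 0.29 and 0.51 (edgeR's adjusted p = 1.0 for each).

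Set against Slc17a7 of the same library, Neurod2 varied far less. Per 1000 CPM of Slc17a7 there were 56.9, 57.6 and 56.2 CPM of Neurod2 in controls 1, 2 and 3 and 48.9, 54.2 and 55.4 CPM in ethanol 1, 2 and 3. The highest control ratio was 1.03 times the lowest, where the CPM of Neurod2 had spanned 1.89-fold. On this scale the 3 ethanol libraries lay below the 3 controls, with a log2 difference of -0.11. The share of all genes that separate on this scale was not computed. By CPM it was 8.85%, and nothing is read from the separation. Relative to the sum of 10 pallial markers the groups of Neurod2 overlapped, with -0.05. Neurod6 was also nearly level in 5 libraries, with 57.7 to 61.3 CPM per 1000 of Slc17a7 in controls and 63.5 and 63.4 in ethanol 1 and 2. In ethanol 3 it was at 25.8, so that Neurod6 was lower there by more than Slc17a7 and Neurod2 were. The ratio of Neurod6 to Neurod2 was 1.01 to 1.07 in controls, 1.30 and 1.17 in ethanol 1 and 2 and 0.466 in ethanol 3. Without ethanol 3 the log2 difference of Neurod6 was 0.50 in place of 0.07, that of Neurod2 0.28 in place of 0.07 and that of Neurod1 0.17 in place of -0.01. The sums of thalamic and hypothalamic markers and of oligodendrocyte markers were highest in that library. So was the sum of astrocyte markers, at 6287 CPM against 4620 to 5528 CPM elsewhere. The part of these tissues and cells in the values was not tested.

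**Figure D4:**
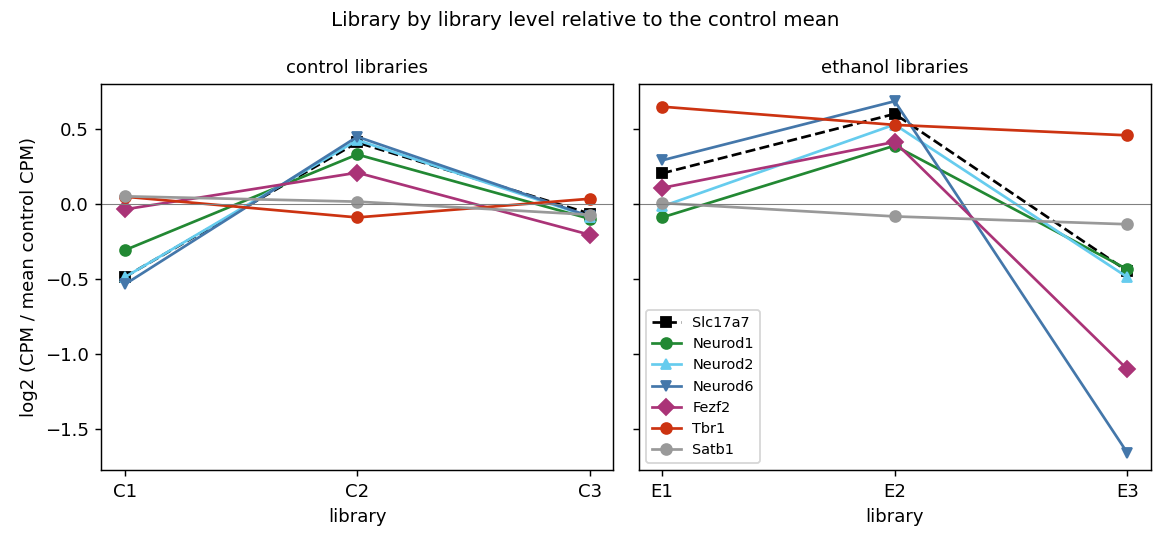
log2 of the CPM of Tbr1, Satb1, Fezf2, the 3 NeuroD genes and Slc17a7 in each library relative to the mean of the controls (left, controls 1 to 3; right, ethanol 1 to 3). Lines join the values of a gene and imply no order of libraries. Slc17a7 and the NeuroD genes are highest in C2 and E2 and low in C1 and E3, whereas Tbr1 is nearly level inside each group and Satb1 across all 6 libraries.

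Fezf2 (chr15:12825333-12831496, plus strand), which specifies neurons projecting below the cortex, was, like Neurod6, lowest in ethanol 3. It was at 21.4, 25.4 and 19.1 CPM in controls 1, 2 and 3 and at 23.7, 29.3 and 10.2 CPM in ethanol 1, 2 and 3, with ethanol 3 below all controls and ethanol 2 above them. The log2 difference was -0.06 with a standard error of 0.33 (edgeR's adjusted p = 1.0), and 0.27 without ethanol 3. Per 1000 CPM of Slc17a7 it ranged from 33.0 to 51.9 CPM in the controls and from 24.1 to 35.5 CPM in the ethanol libraries, and control 1 was the highest.

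Bcl11b (chr6:131834097-131927251, minus strand), a zinc finger factor of deep-layer pallial neurons that striatal-type GABA neurons also express, was at 115, 127 and 127 CPM in controls 1, 2 and 3 and at 146, 144 and 104 CPM in ethanol 1, 2 and 3. Ethanol 1 and 2 were above all controls and ethanol 3 below them, and the log2 difference was 0.09 with a standard error of 0.13 (edgeR's adjusted p = 1.0). It ran from 0.01 without ethanol 1 to 0.24 without ethanol 3. Sox5 (chr4:178062267-179031991, minus strand) was at 27.9, 31.4 and 31.2 CPM in the controls and at 33.6, 32.8 and 24.5 CPM in the ethanol libraries. The libraries of Sox5 stood in nearly the same proportions as those of Bcl11b, a likeness noticed after the values were seen. The ratio of Bcl11b to Sox5 in CPM lay between 4.05 and 4.41 over the 6 libraries, although the levels of both genes differed by up to 1.40-fold inside the ethanol group. The log2 difference of Sox5 was 0.00 with a standard error of 0.12 (edgeR's adjusted p = 1.0), and 0.14 without ethanol 3. Over the deviations from the group means in 6 libraries, Pearson's r was 1.00 for Bcl11b with Sox5 and 0.96 for Neurod6 with each of Bcl11b, Sox5 and Fezf2, beside 0.88 for Neurod6 with Neurod1 or Neurod2 and 0.99 for Neurod1 with Neurod2. With the summed thalamic and hypothalamic markers, r was -0.98 for Neurod6 and for Fezf2, -0.96 for Bcl11b and -0.94 for Sox5. It was -0.84 for Neurod1 and -0.82 for Neurod2. That sum was highest in ethanol 3, where Neurod6, Fezf2, Bcl11b and Sox5 were lowest. All these r are a description over libraries that also differ in their marker sums.

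Satb1 (chr9:2181135-2277949, plus strand) was the most even of the 9 genes in both groups. It was at 55.5, 54.1 and 50.9 CPM in controls 1, 2 and 3 and at 53.8, 50.5 and 48.7 CPM in ethanol 1, 2 and 3, and the groups overlapped. The log2 difference was -0.07 with a standard error of 0.06 (edgeR's adjusted p = 1.0), and -0.04 without ethanol 3. The highest control was 1.09 times the lowest, below the 1.14 that was the median over the 14760 genes with a mean of at least 1 CPM. By this ratio Tbr1 (1.10), Bcl11b (1.10) and Sox5 (1.13) were also below the median in controls. Neurod2 and Neurod6, at 1.89 and 1.98, exceeded 97.6% and 98.0% of these genes. In the ethanol libraries Neurod6 spanned 5.08-fold and Fezf2 2.86-fold, above 99.7% and 99.4% of the genes, against a median of 1.16.

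The libraries of Tbr1 did not stand in the order of Slc17a7. Its highest control was number 1, which held the least Slc17a7 of the controls, and its lowest was number 2, which held the most. In the ethanol group both genes were lowest in number 3, while Tbr1 was highest in number 1 and Slc17a7 in number 2. The deviations from the group means were compared over the 6 libraries (4 degrees of freedom). Pearson's r of Tbr1 with the other members ran from -0.20 for Neurod1 and Neurod2 to 0.53 for Satb1. It is given as a description over libraries that also differ in their marker sums. With the summed marker lists r ran from -0.72 for choroid plexus and ependyma to 0.82 for endothelium, and it was -0.04 for the pallial markers. Relative to the summed CPM of 10 pallial glutamatergic markers, Tbr1 stood at 6.16, 3.98 and 5.15 per 1000 in controls 1, 2 and 3 and at 7.002, 5.60 and 8.03 per 1000 in ethanol 1, 2 and 3. On this scale the groups overlapped, since ethanol 2 was below control 1. The log2 difference was 0.44 in place of 0.55, and with 1 library left out it ran from 0.27 without control 2 to 0.59 without control 1. With Slc17a7 alone as the denominator it was 0.38. The marker sum itself was 2446 to 3438 CPM in controls and 2491 to 3750 CPM in ethanol libraries. Of the other 8 members, Eomes was higher in the ethanol group on this scale by a log2 difference of 0.26, and the other 7 had values from -0.29 for Fezf2 to -0.03 for Bcl11b. For all 9 genes the groups overlapped on this scale.

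**Figure D5:**
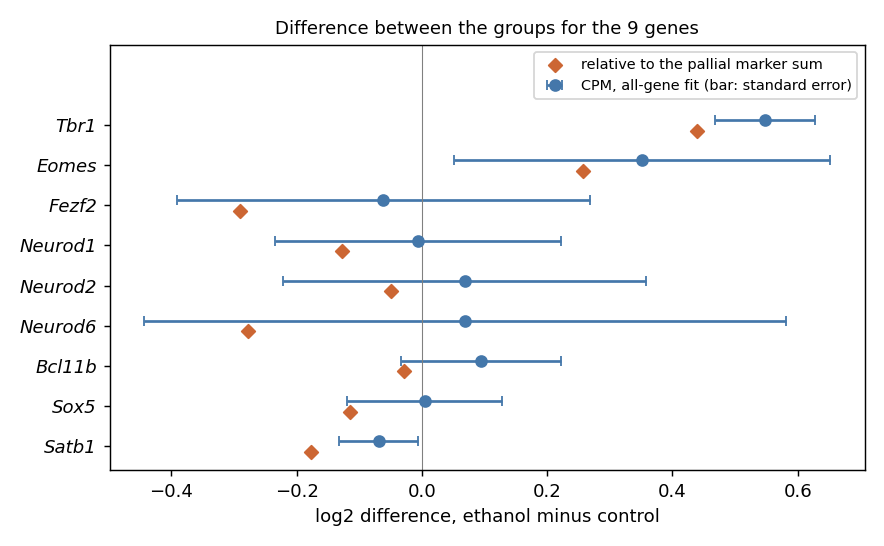
log2 difference, ethanol minus control, of the 9 genes from the fit across all genes (circles, bars for the standard error) and relative to the summed pallial markers (diamonds). Tbr1 is at 0.55 and 0.44, and Neurod6, Fezf2 and Neurod2 have standard errors of 0.51, 0.33 and 0.29.

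Genes that TBR1 is known to act on or with were compared in the same fit. The list held Reln, Grin2b, Ntng1, Cntn2, Cdh8, Cask and Tspyl2, with Auts2 not matched. Of the 7 tested with edgeR, 0 passed the adjusted threshold and 0 had an unadjusted p below 0.05, beside 0% and 4.15% of all genes. Their log2 differences ran from -0.05 to 0.18 with a median of 0.02, beside a median of 0.01 over all genes tested. Grin2b, the NMDA receptor subunit whose promoter TBR1 can activate, was at 116, 158 and 136 CPM in controls 1, 2 and 3 and at 168, 180 and 117 CPM in ethanol 1, 2 and 3. Its libraries stood in the order of Slc17a7 rather than that of Tbr1, and its log2 difference was 0.18 with a standard error of 0.17. Cntn2, an axonal adhesion protein, and Tspyl2, a nucleosome assembly protein that binds TBR1, had log2 differences of 0.07 and -0.05 with standard errors of 0.14 and 0.08.

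Another 25 transcription factors of pallial neurons were examined, of which 24 were tested and 0 passed the adjusted threshold (0% of all genes). At an unadjusted p below 0.05 there was 1 of 24, beside 4.15% of all genes. It was Id2, an inhibitor of bHLH factors, with a log2 difference of 0.18 (standard error 0.07, edgeR's adjusted p = 1.0), from 59.3 ± 2.37 to 67.3 ± 4.90 CPM (SD, n = 3 each). The median of the 24 was 0.03, and 14 were positive and 10 negative. Their libraries followed the order of Slc17a7 in 8 of 24 cases, beside 8.3% of all genes. Bhlhe22, a bHLH factor, and Lmo4, a LIM adaptor, were among the 8. Bhlhe22 was at 113, 172 and 157 CPM in controls 1, 2 and 3 and at 170, 223 and 89.0 CPM in ethanol 1, 2 and 3, and like Neurod6 it was lowest in ethanol 3.

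The 18 subpallial transcription factors were all tested, and 0 passed the adjusted threshold (0% of all genes). Lhx6, which specifies interneurons of the medial ganglionic eminence, was the only 1 of 18 with an unadjusted p below 0.05, beside 4.15% of all genes, with a log2 difference of -0.26 (standard error 0.10, edgeR's adjusted p = 1.0). It was at 45.7, 42.2 and 35.5 CPM in controls 1, 2 and 3 and at 35.5, 32.4 and 35.4 CPM in ethanol 1, 2 and 3, so that control 3 and ethanol 1 nearly met. The median of the 18 was 0.00, and 0 of them followed the order of Slc17a7. Dlx1, Tshz1 and Meis2, the most abundant of the list per length, had log2 differences of -0.16, 0.08 and 0.24 with standard errors of 0.08, 0.08 and 0.22. Of the 10 pallial markers, 0 had an unadjusted p below 0.05, and the median was 0.07. Nrgn, a calmodulin-binding protein of dendrites, Camk2a, a synaptic kinase, and Slc17a7 had 0.10, 0.16 and 0.18 with standard errors of 0.15, 0.11 and 0.29, and 7 of the 10, Slc17a7 among them, stood in its order.

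The genes whose log2 CPM was most like that of Tbr1 over the 6 libraries were Ptgfrn, Rasgrp1, Tspan5, Kcnj15 and Pcare. Pearson's r was 0.96, 0.95, 0.94, 0.94 and 0.94, and 18 of the 4442 genes considered reached 0.9. For these 5 genes the groups did not overlap either, since likeness to Tbr1 includes its difference between the groups. Rasgrp1, a guanine nucleotide exchange factor for Ras, was at 109 CPM in controls and 170 CPM in the ethanol group on average, with a log2 difference of 0.65 (standard error 0.14). Ptgfrn and Tspan5, both membrane proteins, had log2 differences of 0.38 and 0.30 with standard errors of 0.06 and 0.07. With the group means removed, the genes most like Tbr1 were Pum2, LOC102547697, Lrrk2, Sdf4 and Dipk2a, with r from 0.99 to 1.00, and 214 of 13286 genes reached 0.9. No other member was among them, and Eomes, with a mean below 1 CPM, was not among the genes considered. Taken without these cuts, r of the other members with Tbr1 in log2 CPM ran from -0.40 for Satb1 to 0.54 for Eomes.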

How the data were processed

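RNA-seq was measured in 6 libraries, 3 control and 3 ethanol, each from the pooled RNA of 2 rats (stranded mRNA kit, single-end reads of 100 nt). Per the file headers and the submitters' processing notes, the authors aligned trimmed reads with STAR 2.7.0f and deposited raw counts made with featureCounts of Subread 1.6.3, summed over the exons of each Rnor_6.0 gene with strand setting 2, leaving out reads of several places or genes. The exons of the 9 members shared no bases with another gene on either strand. Symbols were matched by NCBI gene identifier to a RefSeq table of the GRCr8 assembly for 29322 of 38445 genes, and 130 of 132 list genes were found. No coordinates were converted.

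The fits used edgeR 4.0.16 and R 4.3.3 (filterByExpr with a minimum of 10 counts, TMM, quasi-likelihood F test, Benjamini-Hochberg adjustment over all 18141 genes, threshold 0.2 as in the study). Standard errors are the absolute log2 difference divided by the square root of F. log2 CPM used for likeness carries a prior count of 2, and likeness was sought among genes with a mean of at least 1 CPM and an SD of at least 0.5 times that of Tbr1 on the same scale. DESeq2 1.42.0 was an alternative. Marker sums were compared by a 2-sided exact permutation test over 20 label splits. Within groups, library pairs differed by 14.3 to 67.6 in chi-square per degree of freedom, more than counting error. The floor given in CPM rests on counts alone and leaves out the spread between libraries. The SDs are taken over libraries, and the standard errors come from the quasi-likelihood fit.

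The members and gene lists were chosen with earlier results of these data known, and the lists were written by hand from general knowledge. Genes named are the members, the 3 most abundant per length of a list and those with an unadjusted p below 0.05, and the 5 most like Tbr1. Of the marker lists, only genes that touch a result are named, chosen after their values were seen. The alternatives were other scalings, no filter, another test, a replicate block and leaving out each library.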

Additional observations from a re-analysis of the deposited data

How the results depend on the processing

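The count of 0 genes with an adjusted p below 0.2 became 75 with DESeq2 and 77 with edgeR's likelihood ratio test, and when libraries were left out singly it ran from 0 to 83 (4 without ethanol replicate 1, 83 without ethanol replicate 3). The count of 0 members became 1, Tbr1, with both tests and without ethanol replicate 3. Tbr1 was chosen by this difference, so nothing is read from that count, and of the other 8 members 0 were called under any of these settings. The cause of the larger gene counts was not tested. The log2 difference of Tbr1 was 0.44 relative to the pallial marker sum, in place of 0.55, and 0.38 relative to Slc17a7 alone. When 1 library was left out, the value relative to the sum ran from 0.27 to 0.59. Relative to that sum the sign changed for Neurod2 (-0.049), Neurod6 (-0.28), Bcl11b (-0.029) and Sox5 (-0.11). With library size alone it changed for Sox5 (-0.025). With the replicate number as a block 0 genes and 0 members were called, and the sign changed for Neurod6 (-0.13) and Sox5 (-0.0065). The numbers mark different rats. Deviations of same-numbered libraries correlated by 0.0264, 0.388 and 0.211 over 14241 genes, and those of the other pairs by -0.427 to 0.305. Whether same-numbered libraries share more than a number was not tested. Over the fits that each left out a library, the log2 difference ran from -0.25 to 0.19 for Neurod1, -0.23 to 0.34 for Neurod2, -0.38 to 0.50 for Neurod6, -0.37 to 0.27 for Fezf2, 0.11 to 0.54 for Eomes, 0.01 to 0.24 for Bcl11b, -0.11 to -0.04 for Satb1 and -0.076 to 0.14 for Sox5. The summed level changed sign for endothelial markers without their most abundant gene (0.031) and for lymphocyte markers without it (0.49) and as a mean log2 CPM (0.032). With 3 libraries per group, these values are limited by the spread between libraries, which over all genes was more than counting error. Eomes also had low counts, 25 to 57 per library.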
